A study of Homo sapiens with 17 samples.

Results

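The same esophageal squamous cancer line lost SOX2 expression in 2 ways, by silencing an enhancer of the gene and by cutting the gene itself, and the data compared how the rest of the transcriptome moved in each. The 9 RNA-seq libraries of this comparison, of 17 in the series, all came from KYSE140, a SOX2-high line. In the first arm the cells were set up for CRISPR interference (CRISPRi), in which a Cas9 that binds without cutting represses the site its guide points to. They received either of 2 guides with no site in the genome (sg-NC#1 and sg-NC#2) or either of 2 guides to e1, an enhancer of SOX2 (sg-e1#1 and sg-e1#2). In the second arm the cells carried cutting Cas9 and received a guide to a negative control region (sg-AAVS1 or sg-Chr2.2) or 1 of 3 guides to the SOX2 coding sequence (sg-SOX2#2, sg-SOX2#3 and sg-SOX2#4). All cells had been infected with lentivirus and selected with blasticidin and puromycin, each library is a bulk population, and each replicate is a different guide. The e1 repression effect is the log2 ratio of the e1 guides to the NC guides, the SOX2 knockout effect is that of the SOX2 guides to the control-region guides, and the difference is the first minus the second. The effects share no control libraries. The form of Cas9, the type of control guide and any batch of the arm go together in this design and cannot be told apart.

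SOX2 is an SRY-box transcription factor that keeps basal progenitor cells of stratified epithelia in place and is amplified in squamous cancers, where it works alongside TP63. An enhancer is a stretch of DNA that raises the transcription of a gene at a distance, and CRISPRi at an enhancer lowers the RNA of the genes it serves. Cas9 cuts in a coding sequence leave small insertions and deletions, so the protein is lost while the RNA may persist, and the RNA level of SOX2 need not track its protein in the knockout arm. Stratified squamous cells that leave the basal layer stop dividing, strengthen their desmosomes and tight junctions, switch keratins and build the cornified envelope, a cross-linked protein shell under the membrane.

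The libraries held between 7260730 and 13484784 expected counts, at which 3 counts correspond to 0.222 to 0.413 CPM (a count scaled to the total of its library). Of 57820 genes, 14455 passed the filter on low counts. A gene was called when its adjusted p from edgeR's quasi-likelihood test, corrected by Benjamini-Hochberg over all 14455 genes, was below 0.05 and its fold change exceeded 1.5, and every adjusted p below comes from that fit. Changes are log2 fold changes of scaled counts. Levels are TPM, RSEM's length-corrected transcript abundance, and they are compared between libraries of the same arm. Where a pair of effects is given for a gene, e1 repression comes first and SOX2 knockout second. A positive difference means that the gene went up more, or down less, after e1 repression. The 10 most abundant genes took 9.83% to 10.74% of the counts in the SOX2 knockout libraries and 6.23% to 6.67% in the other 6, so TPM of all other genes read slightly lower there. The summed TPM of 10 squamous epithelial markers was 7382 to 7427 with NC guides, 13094 to 13296 with e1 guides, 8951 to 9096 with the control-region guides and 37253 to 46255 with SOX2 guides. It was carried mainly by KRT5, KRT6A and KRT17. Of the 10 markers, 4 rose and 2 fell after e1 repression, and 9 rose and 1 fell after knockout, with TP63 falling in both arms. Among all tested genes 9.1% rose and 9.73% fell after e1 repression, and 15.4% rose and 14.2% fell after knockout. The sum over 15 markers of other cell types was between 17.7 and 28.9 in the 4 control libraries, 65.1 to 68.1 with e1 guides and 100.4 to 114 with SOX2 guides, carried mainly by CD68 and COL1A1, and the T cell gene CD3E and the endothelial gene KDR were at 0 in all 9 libraries. The p-values weigh an effect against the spread between libraries within the 4 groups of the fit. As replicates are different guides, guide and culture cannot be told apart in that spread.

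SOX2 RNA fell in both arms. SOX2 (ENSG00000181449, hg19 chromosome 3, 181429713 to 181432224, plus strand) read 379 and 365 TPM in the NC libraries and 119.6 and 128 TPM in the e1 libraries. In the knockout arm it read 397 and 428 TPM in the controls and 103, 125 and 221 TPM with sg-SOX2#2, #3 and #4. The groups of each arm did not overlap, and sg-SOX2#4 kept more SOX2 RNA than any other perturbed library. The effects were -1.57 ± 0.21 (SE) for e1 repression and -1.30 ± 0.18 for knockout, and their difference of -0.27 ± 0.28 (SE; adjusted p = 0.512) had a 95% interval from -0.86 to 0.32. Without sg-SOX2#4 the difference was 0.09. In bulk RNA, fewer cells that express a gene and less RNA per cell cannot be told apart.

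The long noncoding RNA SOX2-OT (chromosome 3, 180707550 to 181554668) spans SOX2 on the same strand and could share its reads. Expected counts of both genes were whole in all 9 libraries, so no split of reads between them showed. SOX2-OT fell further with the e1 guides. Its levels were 84.0 and 84.1 TPM with NC guides, 6.51 and 3.36 with e1 guides, 49.2 and 59.3 with the control-region guides and 4.09, 3.63 and 7.80 with SOX2 guides, that is, effects of -4.46 and -2.90 and a difference of -1.56 ± 0.30 (SE; adjusted p = 0.00138). On the TPM scale the difference did not pass (adjusted p from limma = 0.318 with a pseudocount of 1). LINC01206, another noncoding gene of the locus, stood at 8.33 and 8.08 TPM with NC guides, 9.45 and 8.15 with e1 guides and 50.6 and 60.3 with the control-region guides. With sg-SOX2#2, #3 and #4 it stood at 2.11, 2.14 and 47.0 TPM, so that the knockout libraries disagreed with each other, and its difference was 1.65 ± 1.25 (SE; adjusted p = 0.361). Leaving out sg-SOX2#4 brought that difference to 4.84 and past the threshold. FXR1 and ATP11B, protein-coding neighbours, had effects of 0.04 and -0.14 and of 0.08 and 0.27, and neither was called in either arm or in the difference (adjusted p = 0.219 and 0.205). Over the 59 other tested genes within 5 Mb of SOX2, 4 rose and 5 fell after e1 repression and 4 rose and 10 fell after knockout. Of all tested genes, 9.1% rose and 9.73% fell after e1 repression, and 15.4% rose and 14.2% fell after knockout. Among the 59, the difference was called upward in 6 (ZNF639, GNB4, USP13, DNAJC19, VWA5B2 and ETV5) and downward in SOX2-OT and EPHB3, together 8 of 59, beside 16.6% of all tested genes.

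Across the transcriptome, e1 repression raised 1316 genes (9.1% of those tested) and lowered 1406 (9.73%), and SOX2 knockout raised 2231 (15.4%) and lowered 2051 (14.2%). The effects themselves differed in 2397 genes, 16.6% of those tested, with 1187 (8.21%) higher and 1210 (8.37%) lower in e1 repression relative to knockout. That even split depended on the scaling. With library size alone the median difference of all genes moved from 0.03 to 0.17 and 67.6% of 2785 called genes were higher. The genes fell into classes by what was called. In 65 genes (0.45%) the effects were called in opposite directions. In 373 (2.58%) only e1 repression was called, in 1125 (7.78%) only knockout, and in 399 (2.76%) both were called in the same direction with unequal size, each class requiring the difference to be called as well. A further 1334 genes were called in both arms in the same direction with no call of the difference, 684 up and 650 down. Across all tested genes the effects had a Pearson correlation of 0.65 and a Spearman correlation of 0.54, given as a description, since genes of the same libraries are not independent.

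**Figure D1:**
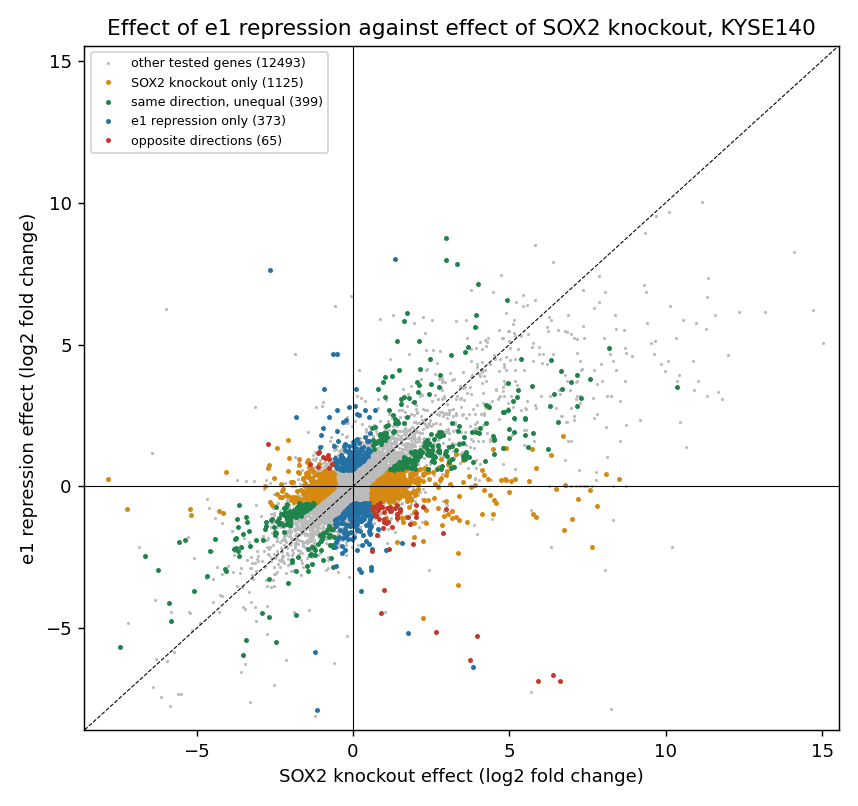
Each point is 1 of 14455 tested genes, with its SOX2 knockout effect on the x axis and its e1 repression effect on the y axis (both log2 fold change), coloured by class; the dashed line marks equal effects. Most of the cloud runs along the diagonal, the 1125 genes called in knockout only lie along the horizontal axis, and 54 of the 65 opposite genes lie in the lower right.

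Beside these classes stand a pair of direct comparisons. The control groups, NC guides in CRISPRi cells against control-region guides in Cas9 cells, differed in 932 genes (6.45% of those tested). The perturbed groups, e1 guides against SOX2 guides, differed in 3486 (24.1%). Of the 1125 genes called in knockout only, 96 (8.53%) differed between the controls and 954 (84.8%) between the perturbed groups. Of the 373 called in e1 repression only, 32.4% differed between the controls and 46.6% between the perturbed groups, and of the 65 opposite genes 35.4% and 93.8% did. The part of the control difference in each class was not tested, since the difference of the effects already contains it.

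**Figure D2:**
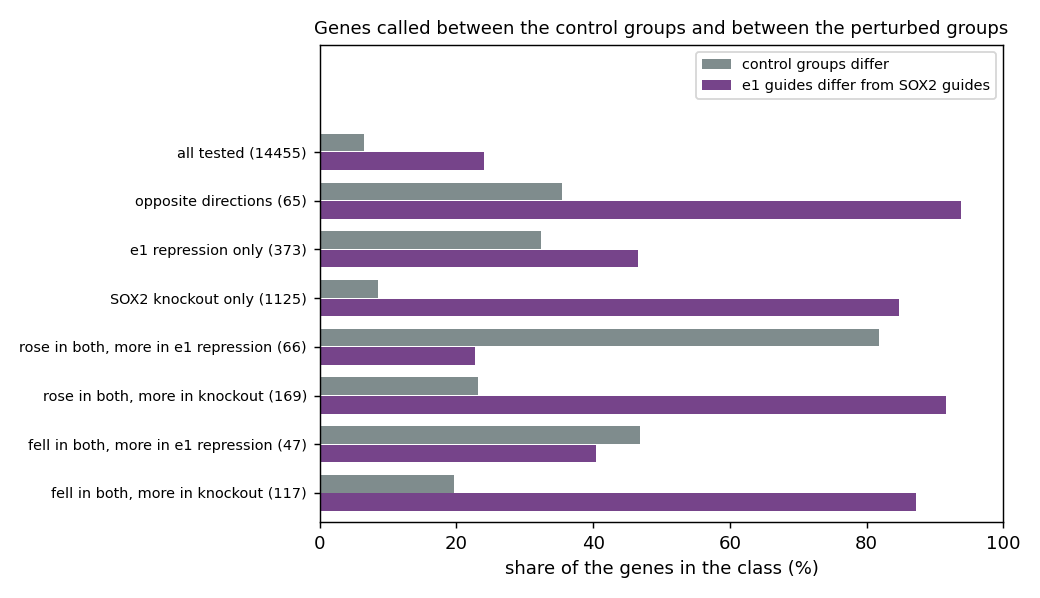
Bars give the share (%) of the genes of each class that were called between the 2 control groups (grey) and between the e1 guides and the SOX2 guides (purple), with the number of genes in brackets; no error applies to these counts. Genes that rose in both but more in e1 repression differed between controls in 81.8% and between perturbed groups in 22.7%, whereas genes called in knockout only showed 8.53% and 84.8%.

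Among the 65 genes called in opposite directions, 54 fell after e1 repression and rose after knockout, and 11 did the reverse. The named genes of the first kind included keratins and other epithelial genes. KRT19 (chromosome 17, 39679869 to 39684560, minus strand), a keratin of simple and progenitor epithelia, stood at 601 and 504 TPM with NC guides and at 245 and 280.2 with e1 guides. In the other arm it stood at 279 and 305 TPM with the control-region guides and at 1045, 1010 and 1073 with SOX2 guides. Both e1 libraries lay below both NC libraries and all 3 knockout libraries above both of their controls, while the e1 libraries were near the level of the control-region libraries. The effects were -1.07 ± 0.09 and 2.01 ± 0.08, with a difference of -3.08 ± 0.12 (SE; adjusted p = 3.39e-09), and the NC guides stood 0.94 above the control-region guides on the log2 scale. KRT15, a basal keratin, had effects of -3.64 and 0.98. Its levels were 208 and 171 TPM with NC guides and 12.2 and 18.7 with e1 guides, against 14.9 and 16.2 with the control-region guides and 28.2, 27.2 and 25.6 with SOX2 guides. The control groups thus differed by 3.75 on the log2 scale, slightly more in size than the e1 repression effect, and KRT15 shares reads with related keratins, so its values are uncertain.

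For MYH14 and GRHL3 the control groups were not called different. MYH14, a nonmuscle myosin heavy chain, went from 60.9 and 60.7 TPM to 31.6 and 33.6 with e1 guides, and from 54.2 and 66.7 to 108, 104 and 109 with SOX2 guides. Its effects of -0.89 and 1 differed by -1.88 ± 0.12 (SE; adjusted p = 1.35e-07), with controls only 0.05 apart. GRHL3, a Grainyhead-like transcription factor of epidermal barrier formation, went from 21.1 and 23.8 TPM to 14.5 and 10.6, and from 21.2 and 32.1 to 54.2, 62.6 and 61.3. Its effects were -0.80 and 1.5, the difference was -2.30 ± 0.16 (SE; adjusted p = 5.6e-07), and the controls differed by -0.22 (adjusted p = 0.218). The related GRHL1 had effects of -0.71 and 2.22, and the plakophilin gene PKP1, a desmosome component, of -0.59 and 0.86 with a difference of -0.0019 between the control groups. Without sg-e1#1 the e1 repression effects of GRHL1 and PKP1 were both -0.56 and not called, nor was that of GRHL1 called without sg-NC#2 (-0.47) or with limma on TPM, or that of PKP1 without sg-NC#1 (-0.57). PTPRU, a receptor tyrosine phosphatase, and HSPG2, which encodes the basement membrane proteoglycan perlecan, had effects of -1.42 and 1.26 and of -0.73 and 0.89, with the NC guides 1.44 and 1.16 above the control-region guides. MMP15, a membrane-type matrix metalloproteinase, showed -0.98 and 1.40. With limma on TPM the e1 repression effect of HSPG2 was not called.

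The 11 genes that rose after e1 repression and fell after knockout included ligands and a neuronal adhesion gene. CNTNAP2 (chromosome 7, 145813094 to 148118090), a neurexin-family adhesion protein, stood at 4.53 and 3.17 TPM with NC guides, 12.1 and 11.3 with e1 guides, 10 and 8.04 with the control-region guides and 0.99, 0.57 and 1.05 with SOX2 guides. Its effects of 1.48 ± 0.15 and -2.70 ± 0.17 gave a difference of 4.19 ± 0.23 (SE; adjusted p = 6.96e-08), with controls -0.82 apart. JAG1, a Notch ligand, had effects of 0.64 and -0.78, FGF2, a fibroblast growth factor, of 0.67 and -1.13, and CCN2, a matrix protein and Hippo-YAP target, of 1.09 and -0.81. SLC7A11, the cystine transporter that feeds glutathione synthesis, showed 1.04 and -0.95, and the glutathione transferase gene GSTM3 1.21 and -1.08. For these 5 the NC guides stood below the control-region guides, by a log2 difference between -1.32 and -0.84. IGF2, an insulin-like growth factor, had effects of 0.77 and -0.68 with controls 0.30 apart (adjusted p = 0.0986). Without sg-NC#1 the e1 repression effects of JAG1 (0.52) and FGF2 (0.45) were not called, and that of FGF2 was not called with limma on TPM. Reads of SLC7A11, IGF2, GSTM3, GRHL1 and HSPG2 were partly assigned among several genes or transcripts, which makes their values uncertain.

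**Figure D3:**
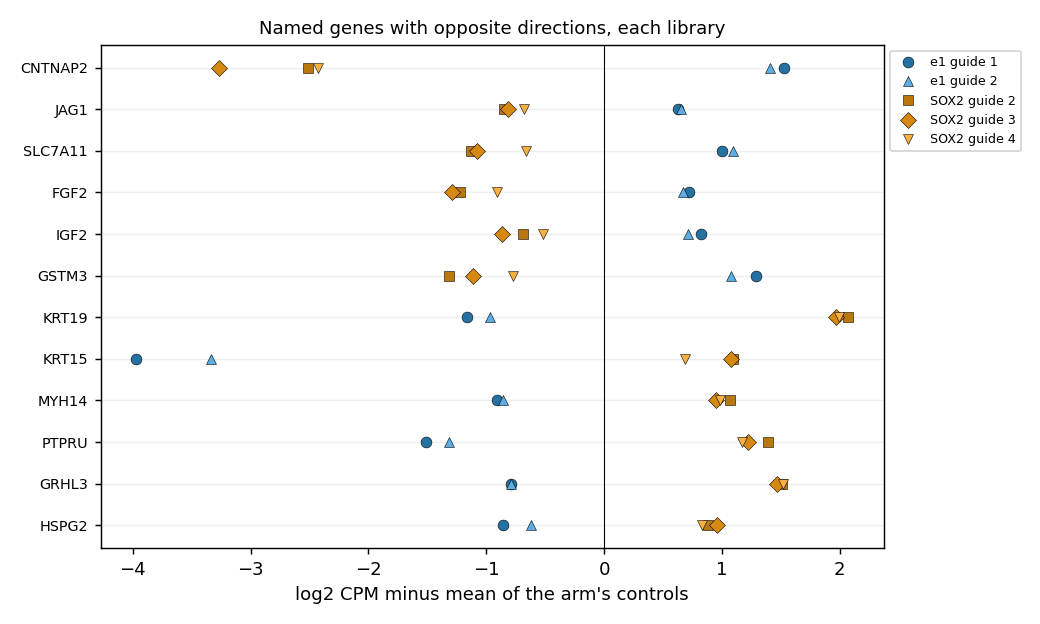
For the 12 named genes called in opposite directions, points give the log2 CPM of each e1 library (blue) and each SOX2 knockout library (orange) minus the mean of the controls of its own arm, without error bars. The genes were chosen as called in opposite directions without overlap of libraries, so that the 2 e1 libraries lie on the other side of 0 from the 3 knockout libraries by construction, for KRT19 at -1.16 and -0.97 against 1.97 to 2.07.

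Of the 373 genes called in e1 repression only, 169 rose and 204 fell, and for 215 of them the 95% interval of the knockout effect lay within 1.5-fold either way. CAV1 (chromosome 7, 116165048 to 116201233), the main coat protein of caveolae, stood at 389 and 443 TPM with NC guides and at 1284 and 1281 with e1 guides. It was at 591 and 559 TPM with the control-region guides and at 497, 559 and 628 with SOX2 guides, so both e1 libraries stood above the other 7, and the NC libraries were the lowest. Its effects were 1.67 ± 0.06 and 0.12 ± 0.05, and the difference was 1.56 ± 0.08 (SE; adjusted p = 3.81e-08). PTHLH, which encodes parathyroid hormone-related protein, had effects of 1.60 and 0.03, THBS1, the matrix glycoprotein thrombospondin 1, of 1.36 and 0.05, and the death receptor TNFRSF21 of 1.46 and 0.05. The endothelial and smooth muscle receptor-like gene DCBLD2 showed 1.73 and 0.40. For these 4 the NC guides stood -0.90 to -1.43 from the control-region guides on the log2 scale. THBS1, for instance, read 207 and 237 TPM with NC guides, 584 and 585 with e1 guides, 434 and 414 with the control-region guides and 339, 413 and 431 with SOX2 guides.

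Growth factor genes that rose with e1 repression only included the ERBB ligand NRG1, with effects of 1.30 and -0.25 and a difference of 1.55 ± 0.13 (SE; adjusted p = 1.81e-06), and the cytokine IL11, with 2.85 and 0.05. DKK1, a secreted Wnt inhibitor, showed 0.94 and -0.22, the insulin receptor substrate IRS1 1.02 and -0.31, the TGF-beta receptor TGFBR2 0.73 and -0.24, and the retinoic acid receptor RARA 0.85 and -0.26. The protease inhibitor TIMP1 rose by 1.01 after e1 repression, against -0.58 after knockout, and the gelatinase MMP2 by 1.39 against 0.32. The size of the TIMP1 knockout effect lay near the fold limit of 0.585 on the log2 scale. On the TPM scale the MMP2 difference was not called. Genes that fell with e1 repression only included the actin-severing gelsolin gene GSN, at 92.3 and 89.2 TPM with NC guides and 53.7 and 51.1 with e1 guides, against 108 and 109 with the control-region guides and 131, 137 and 145 with SOX2 guides. Its effects of -0.78 and 0.48 differed by -1.25 ± 0.09 (SE; adjusted p = 7.56e-07), with controls -0.24 apart. The receptor NOTCH3 had effects of -1.22 and 0.26, the membrane-skeleton adaptor ANK3 of -1 and 0.55, the guidance ligand SEMA3C of -0.92 and 0.45 and the Wnt ligand WNT5A of -1.58 and 0.50. After knockout GSN, NOTCH3, ANK3, SEMA3C and WNT5A were all higher, with adjusted p from 1.1e-05 (GSN) to 0.0102 (NOTCH3). These rises were not called because they lay under the fold limit of 0.585 on the log2 scale. WNT5A read 14.6 and 12.6 TPM with NC guides and 4.90 and 5.47 with e1 guides, against 4.68 and 3.90 and 7.06, 9 and 5.54 in the knockout arm. Its control groups differed by 1.63, and those of SEMA3C by 0.74. Counts of DCBLD2, IL11, NOTCH3, ANK3 and SEMA3C were not whole, so some of their reads were shared and their values are uncertain.

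Cell division genes fell after SOX2 knockout and, with few exceptions, were not called after e1 repression. Of 35 tested genes of DNA replication, 27 fell and none rose after knockout, while 1 fell after e1 repression, and the difference was called in 24, all higher in e1 repression. Of 34 mitosis genes, 30 fell after knockout and 1 after e1 repression, and the difference was called in 22, again all higher. The median effects were -0.10 and -0.85 for DNA replication and -0.14 and -0.88 for mitosis, beside medians of 0 and -0.03 over all tested genes. Of all tested genes, 14.2% fell after knockout, 9.73% fell after e1 repression and 8.21% were higher in the difference. No gene of either list rose after knockout in edgeR, at an unadjusted p under 0.05 or in DESeq2. After e1 repression, at an unadjusted p under 0.05 in edgeR, 10 of the replication genes were lower and 3 higher. Of the mitosis genes, 17 were lower and 2 higher at that threshold. DESeq2 called 24 and 20 differences, all higher. Between the control groups 2 replication genes and no mitosis gene were called (DESeq2 was not run on that contrast), with median differences of 0.21 in both lists, and between e1 guides and SOX2 guides 31 and 29 were, all higher with e1 guides. Over the 14455 tested genes, 932 (6.45%) were called between the controls, and 1581 were higher and 1905 lower with e1 guides than with SOX2 guides.

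FOXM1, the transcription factor of the G2 and mitosis programme, read 124 and 131 TPM with NC guides and 129.9 and 140.2 with e1 guides. It read 101 and 101 with the control-region guides and 34.6, 39.1 and 49.6 with SOX2 guides. Its effects were 0.11 and -1.13 with a difference of 1.24 ± 0.13 (SE; adjusted p = 1.48e-05). MCM7, a subunit of the replicative helicase, read 352 and 351 TPM with NC guides, 316 and 326 with e1 guides, 324 and 295 with the control-region guides and 141, 151 and 163 with SOX2 guides, and its difference was 0.75 ± 0.09 (SE; adjusted p = 3.3e-05). The helicase subunit MCM3 had effects of -0.03 and -0.84, the clamp loader subunit RFC3 of 0.06 and -1.04 and the ribonucleotide reductase subunit RRM2 of 0.20 and -0.65. Of the mitotic genes, the chromosomal passenger kinase AURKB showed -0.03 and -0.84, the inhibitor of apoptosis and passenger protein BIRC5 0.22 and -0.72, and the kinesin KIF20A -0.43 and -1.24. Reads of FOXM1, BIRC5 and RRM2 were partly shared. CDKN1A, the cell cycle inhibitor p21, rose in both arms, by 1.42 and 2.54, with a difference of -1.11 ± 0.15 (SE; adjusted p = 8.42e-05). The medians of both lists were negative with all 3 SOX2 guides. The median change of the replication genes was -0.90, -0.79 and -0.80 with sg-SOX2#2, #3 and #4, against -0.13 and -0.06 with the e1 guides. Of the 3, sg-SOX2#4 is the one with the most SOX2 RNA.

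**Figure D4:**
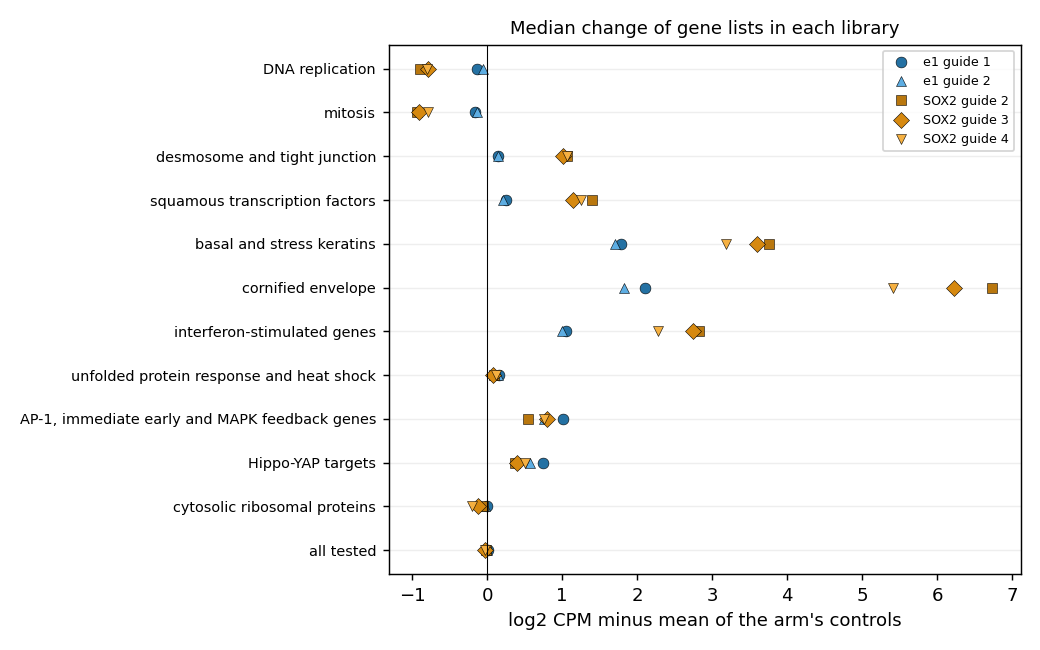
Points give, for each e1 library (blue) and each SOX2 knockout library (orange), the median over the tested genes of a list of the log2 CPM minus the mean of the controls of its own arm, without error bars. Replication and mitosis genes lie between -0.93 and -0.79 in the knockout libraries and between -0.16 and -0.06 in the e1 libraries, and the medians of all tested genes lie between -0.03 and 0.01.

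Many promoters of mitotic genes carry the cell cycle genes homology region (CHR), a short element bound by the DREAM and MYB-MuvB complexes. The letters TTTGAA were searched on both strands of the 250 bases before the RefSeq start (GRCh38.p14), which was at hand for 9948 of the 14455 tested genes. They stood in 8.19% of those 9948 windows, in 15 of 28 windows of the mitosis list (53.6%), in 1 of 30 of the replication list (3.33%) and in 54 of the 418 of genes that fell in knockout only (12.9%). The knockout-only class includes 22 genes of the mitosis list. The shares were 7.11% for genes that rose in knockout only, and 10.9% and 7.04% for those that rose and fell in e1 repression only. Of the opposite genes that rose and fell after e1 repression, 1 of 8 and 2 of 37 windows held the letters. A match is a description of the letters and says nothing of occupancy. The windows of 3 mitosis genes called in knockout only are shown as examples, chosen after their values were seen, with the matched letters in capitals. They lie at chr1:43358731-43358980, chr16:23678639-23678888 and chr10:60778081-60778330, all on the plus strand.
CDC20: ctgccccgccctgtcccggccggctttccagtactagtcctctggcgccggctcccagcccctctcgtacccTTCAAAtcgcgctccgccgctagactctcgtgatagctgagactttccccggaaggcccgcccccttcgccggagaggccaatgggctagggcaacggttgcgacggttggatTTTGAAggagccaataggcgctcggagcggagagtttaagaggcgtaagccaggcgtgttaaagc
PLK1: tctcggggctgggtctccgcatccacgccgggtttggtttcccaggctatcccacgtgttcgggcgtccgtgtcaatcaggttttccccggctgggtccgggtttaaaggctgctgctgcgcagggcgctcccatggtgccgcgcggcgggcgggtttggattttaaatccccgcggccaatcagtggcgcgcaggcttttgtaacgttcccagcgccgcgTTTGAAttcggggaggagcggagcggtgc
CDK1: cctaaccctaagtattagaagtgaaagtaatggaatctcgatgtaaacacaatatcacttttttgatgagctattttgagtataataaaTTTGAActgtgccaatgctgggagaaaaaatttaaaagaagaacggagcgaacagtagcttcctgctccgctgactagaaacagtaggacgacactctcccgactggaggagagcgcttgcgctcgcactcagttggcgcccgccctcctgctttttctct

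A pair of further short elements were searched in the same windows. The AP-1 letters TGANTCA, on both strands, stood in 4.27% of all windows, in 6.32% of those of genes that rose in knockout only, in 1.67% of those that fell in knockout only, in 7.27% of those that rose and 3.52% of those that fell in e1 repression only. Among the opposite genes they stood in 4 of 37 windows (10.8%) of those that fell and 1 of 8 (12.5%) of those that rose after e1 repression. The SOX letters CATTGT stood in 5.09% of all windows in 3.35% to 5.45% of those of the genes called in only 1 arm, and in 2 of 8 and 2 of 37 of the opposite genes that rose and fell after e1 repression.

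Over the whole knockout-only class, 548 genes rose and 577 fell in knockout only, and for 704 of these 1125 the 95% interval of the e1 repression effect lay within 1.5-fold either way. Of 25 tested desmosome and tight junction genes, 18 rose after knockout and 5 rose and 2 fell after e1 repression, and the difference was called lower in 15 and higher in 1, 64% of the list against 16.6% of all tested genes. Among all tested genes 15.4% rose after knockout, and 9.1% rose and 9.73% fell after e1 repression. DSP, the desmosomal plaque protein desmoplakin, read 118 and 125 TPM with NC guides and 90.9 and 102 with e1 guides. It read 114 and 129 with the control-region guides and 438, 429 and 379.5 with SOX2 guides. The effects were -0.32 and 1.97, the difference was -2.28 ± 0.13 (SE; adjusted p = 7.26e-08), and the controls stood 0.02 apart. PPL, the cornified envelope plakin periplakin, read 34.3 and 36.7 and 24.2 and 27.0 TPM in the CRISPRi arm and 35.0 and 34.3 and then 114, 115 and 103 in the knockout arm, with a difference of -2.33 ± 0.12 (SE; adjusted p = 3.81e-08). The e1 repression effect of PPL was downward at -0.47, under the fold limit (adjusted p = 0.000519). JUP, which encodes plakoglobin, had effects of 0.14 and 1.44. The claudin gene CLDN4 rose in both arms, by 1.30 and 3.29, as did the desmocollin gene DSC2, by 0.61 and 2.67. The e1 repression effect of DSC2 ranged from 0.53 to 0.69 over the alternatives. It was not called with library size alone or with limma on log2(TPM + 1). CLDN4 levels were 59.9 and 61.4 TPM with NC guides, 156 and 139 with e1 guides, 107 and 108 with the control-region guides and 951, 927 and 912 with SOX2 guides. Other genes that rose in knockout only were TRIM29, a squamous epithelial gene, with effects of -0.07 and 1.59, and MTSS1, an actin-binding scaffold with partly shared reads, with 0.31 and 2.81.

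More keratin and envelope genes were called after knockout than after e1 repression. Among all tested genes 15.4% rose after knockout and 9.1% after e1 repression, and 8.37% were lower in the difference. All 9 basal and stress keratins rose after knockout, against 6 that rose and 1 that fell after e1 repression, and the difference was lower in 7. KRT17, a stress keratin, read 1027 and 999 TPM with NC guides, 3429 and 3287 with e1 guides, 1600 and 1708 with the control-region guides and 19020, 17710 and 13880 with SOX2 guides. The effects were 1.75 and 3.54 for KRT17, 0.78 and 1.97 for the stress keratin KRT6A and 0.39 and 1.92 for the basal keratin KRT5, which share reads with near relatives. Of 38 tested cornified envelope genes, 36 rose after knockout and 19 after e1 repression, with 1 lower in each, and the difference was called lower in 10. TGM1, the transglutaminase that cross-links the envelope, read 6.32 and 13.0 TPM with NC guides and 8 and 5.05 with e1 guides, against 2.45 and 4.16 with the control-region guides and 114, 101 and 58.6 with SOX2 guides. Its effects were 0.19 and 5.06 with a difference of -4.87 ± 0.62 (SE; adjusted p = 6.72e-05). The calmodulin-like CALML5 had effects of 1.32 and 6.25 and the plakin EVPL, with partly shared reads, of -0.18 and 1.95. With limma on log2(TPM + 0.1) the e1 repression effect of CALML5 was not called. In 20 of the 38 genes some group had at most 3 counts in each library. Such a gene can pass the filter on low counts through the group where it is high. All 38 were called lower with e1 guides than with SOX2 guides, against 1905 of the 14455 tested genes. The count that rose after knockout may thus be partly set by the filter. With counts below 3 set to 3, the median effects of the list were 1.70 and 5.84, against 3.00 and 7.14 as fitted.

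**Figure D5:**
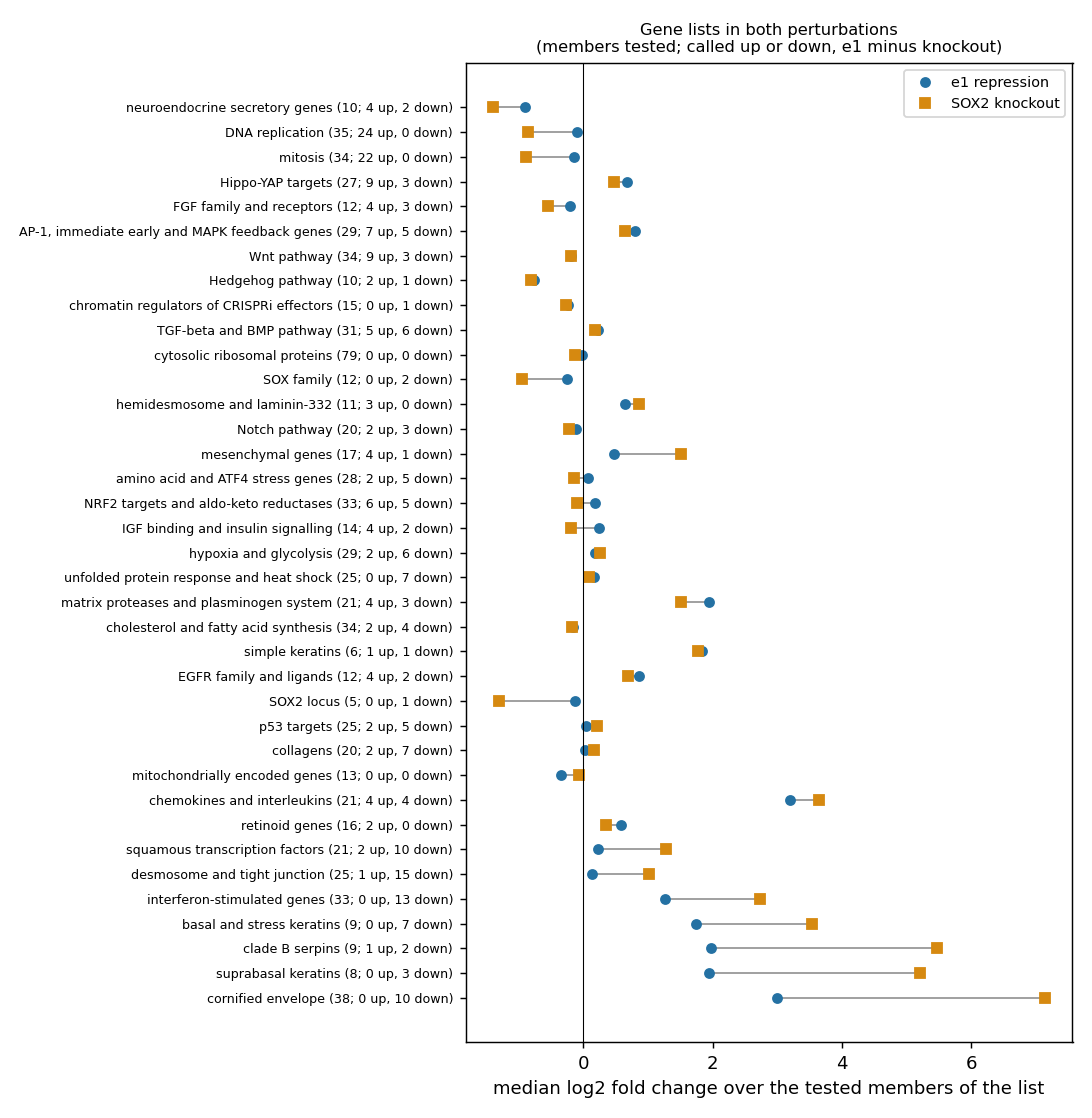
For each gene list, the median log2 fold change over its tested members is shown for e1 repression (circle) and SOX2 knockout (square), with the number tested and the number called up or down in the difference in brackets; no error is drawn. Replication, mitosis, junction, basal and stress keratin, envelope and interferon lists have knockout medians further from 0 than their e1 medians, while ribosomal protein genes lie at -0.02 and -0.12.

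Transcription factors of the squamous lineage split between the arms. Of 21 tested, 13 rose and 1 fell after knockout and 6 rose and 5 fell after e1 repression, and the difference was lower in 10 and higher in 2. Among all tested genes 15.4% rose and 14.2% fell after knockout, and 9.1% rose and 9.73% fell after e1 repression. The difference was lower in 8.37% and higher in 8.21% of them. KLF4, a factor of suprabasal differentiation, was called in knockout only, with effects of 0.23 and 1.45. TP63, the master regulator of basal squamous cells, fell in both arms, at 153 and 157 TPM with NC guides and 94.6 and 98.0 with e1 guides, and at 167 and 182 and then 56.9, 64.3 and 78.5 in the knockout arm. Its difference of 0.61 ± 0.10 (SE; adjusted p = 0.000411) lay at the fold limit and was below it under DESeq2 (0.58), with RLE factors (0.58) and without sg-e1#2, sg-Chr2.2 or sg-SOX2#2 (0.55 to 0.57). MYC, the proliferation-associated transcription factor, rose by 0.97 after e1 repression, and its knockout effect of 0.41 and the difference of 0.56 ± 0.09 (SE; adjusted p = 0.000476) were under the fold limit. KLF5 had effects of 0.14 and 0.33 and was not called in either (adjusted p of the difference = 0.267). In the SOX family of 12 tested genes, 2 rose and 4 fell after e1 repression and 2 rose and 7 fell after knockout. The difference was called in 2 of the 12, both lower, 16.7% of the list against 16.6% of all tested genes. SOX9 rose by 1.11 and 2.53 and SOX15 by 1.90 and 2.83, both more after knockout.

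Of 33 tested interferon-stimulated genes, 27 rose and 1 fell after knockout and 19 rose and 2 fell after e1 repression, and the difference was called lower in 13. None was called higher in edgeR or DESeq2, nor was any higher at an unadjusted p under 0.05. In 7 of the 33 some group had at most 3 counts in each library. Over all tested genes, 15.4% rose and 14.2% fell after knockout, and 9.1% rose and 9.73% fell after e1 repression. The difference was higher in 8.21% and lower in 8.37% of them. The antiviral effector gene IFIT2 had effects of 2.03 and 5, SAMD9 of 2.22 and 4.26 and IFI6 of 0.58 and 4.14. IFI6 read 14.8 and 8.46 TPM with NC guides, 16.1 and 17.9 with e1 guides, 4.6 and 4.45 with the control-region guides and 88.3, 78.0 and 39.7 with SOX2 guides. HERC6, a ligase family gene, was called in opposite directions, with effects of -0.88 and 1.17, neither of which was called with limma on TPM. Among 25 genes of the unfolded protein and heat shock responses, 8 rose after knockout and 2 after e1 repression, and the difference was lower in 7 and higher in 0 (4 higher at an unadjusted p under 0.05 in edgeR, 0 in DESeq2). With library size alone 2 were higher and 2 lower. The small heat shock protein gene HSPB1, with partly shared reads, had effects of -0.08 and 1.38.

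Signalling lists held members on both sides, and their counts stand beside 8.21% of all tested genes called higher and 8.37% called lower. In the single arms, 9.1% of all tested genes rose after e1 repression, and 15.4% rose and 14.2% fell after knockout. Of 27 Hippo-YAP targets, 14 rose after e1 repression and 13 rose and 2 fell after knockout, and the difference was higher in 9 and lower in 3. Of 29 AP-1, immediate early and MAPK feedback genes, 16 rose after e1 repression and 14 after knockout, and the difference was higher in 7 and lower in 5. Between the control groups 13 of these 29 were lower with NC guides and 0 higher. FOSL1, an AP-1 subunit, read 9.97 and 11.8 TPM with NC guides and 146 and 124 with e1 guides, and 31.4 and 30.7 and then 111, 128 and 126 in the knockout arm. The perturbed groups came to a like level, 0.01 ± 0.08 apart, from controls -1.45 apart, with effects of 3.57 and 2.12. The EGFR ligand AREG did the same, with effects of 2.05 and 0.60 and perturbed groups -0.02 apart, with partly shared reads. Its knockout effect ranged from 0.42 to 0.65 over the alternatives and was not called with library size alone or with limma on TPM. The AP-1 subunit JUN had effects of 2.31 and 1.40, while JUND was called in knockout only, with -0.11 and 0.81. Of 34 Wnt pathway genes, the difference was higher in 9 and lower in 3, and DKK3, a secreted Dickkopf-family protein, fell in knockout only, with effects of -0.42 and -1.52. Of 12 EGFR family genes it was higher in 4 and lower in 2, with the receptor ERBB3 at -0.58 and 0.80 and its feedback inhibitor LRIG1 at -0.26 and -1.60. Of 12 FGF ligands and receptors it was higher in 4 and lower in 3, with FGFR3 at -1.05 and -0.08. Of 20 Notch pathway genes it was higher in 2 and lower in 3, a share of 25%, and HES2, a hairy and enhancer of split factor, rose in knockout only, with 0.27 and 2.43.

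Genes that moved the same way in both arms by unequal amounts numbered 399. Of these, 66 rose more in e1 repression, 169 rose more in knockout, 47 fell more in e1 repression and 117 fell more in knockout. In the first group 54 of 66 genes (81.8%) differed between the controls, all 54 lower with NC guides, and 15 (22.7%) differed between the perturbed groups. Only 6 of those 15 had the sign of the difference. In the second group 23.1% differed between the controls and 91.7% between the perturbed groups, beside 6.45% and 24.1% of all tested genes. The difference equals the perturbed contrast minus the control contrast, so the choice of these genes partly sets the direction of their control difference. ITGA6, the laminin-binding integrin of hemidesmosomes, rose by 1.77 and 0.87. ZNF185, a LIM domain protein, rose by 1.08 and 3.51. The chemokine gene CXCL14 fell the most among these examples, from 2783 and 2539 TPM to 58.6 and 64.6 with e1 guides and from 911 and 902 to 80.7, 72.1 and 71.4 with SOX2 guides. Its effects of -5.42 and -3.41 differed by -2.00 ± 0.12 (SE; adjusted p = 1.13e-07), with controls 1.58 apart. GALNT1, which starts O-glycosylation, had effects of -2.25 and -1.03. The nucleoporin gene NUP210 fell by more in knockout, with -0.91 and -2.06, as did RGCC, a regulator of the cell cycle, with -0.65 and -3.64, and the chemokine gene CX3CL1, with -1.25 and -2.79. The e1 repression effect of RGCC ranged from -0.75 to -0.55 over the alternatives and was not called with limma on TPM. Among genes that fell in knockout only, the lactate dehydrogenase subunit LDHB read 1161 and 1125 TPM with NC guides, 1139 and 1059 with e1 guides, 973 and 935 with the control-region guides and 395, 418 and 455 with SOX2 guides, a difference of 0.96 ± 0.08 (SE; adjusted p = 3.21e-06). The matrix protein gene TGFBI had effects of 0.36 and -1.07, the alpha-catenin-like CTNNAL1 of 0.33 and -0.97 and IFRD1 of -0.16 and -1.22.

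Matrix and metabolic genes showed smaller or mixed differences. Their counts stand beside 8.21% of all tested genes called higher and 8.37% called lower in the difference. Of 20 tested collagens, the difference was higher in 2 and lower in 7, 45% of the list, with COL5A1 at 0.08 and 1.32 and COL12A1 at 1.59 and 0.46. COL5A2 had effects of -2.06 and 0.28, but on the log2(TPM + 1) scale its difference moved from -2.34 to -0.55 and neither it nor the e1 repression effect was called. The intermediate filament gene VIM rose by 3.27 and 2.43, and the neural cadherin gene CDH2 fell in both, with effects of -0.90 and -1.92. Of 33 NRF2 targets and aldo-keto reductases, the difference was higher in 6 and lower in 5, or 9 and 4 with library size alone, with the ferritin gene FTL at 0.67 and 1.44 and the glutathione reductase gene GSR at -1.06 and -1.93. Of 29 hypoxia and glycolysis genes it was higher in 2 and lower in 6, or 4 and 5 with library size alone, with BNIP3L, a mitophagy receptor, at -0.02 and 1.62. The retinoic acid hydroxylase gene CYP26B1 fell in knockout only, with 0.07 and -2.31. In 79 cytosolic ribosomal protein genes and 13 mitochondrially encoded genes no member was called in either arm or in the difference by edgeR or DESeq2. At an unadjusted p under 0.05 in edgeR, 15 ribosomal protein genes were higher and 0 lower in the difference, and 4 mitochondrially encoded genes were lower. At that threshold 33 ribosomal protein genes were lower and 2 higher after knockout, and 9 lower and 7 higher after e1 repression. Of the mitochondrially encoded genes, 9 were lower after e1 repression and 3 after knockout, and 0 were higher in either.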

How the data were processed

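Poly-A RNA of KYSE140 cells was sequenced from strand-directional libraries (NEBNext, NovaSeq). Per the methods of the study and the labels, the authors aligned reads with Bowtie2 to hg19 and quantified GENCODE genes with RSEM. Tool versions, the GENCODE release and the strand setting are not given in the sources used here. The authors' deposited tables give an expected count, RSEM's estimated count, for each of 57820 genes, in which reads that match several genes are shared out, so 7.45% to 9.09% of the genes in a library had counts that were not whole. The authors' TPM values, a length-corrected abundance scaled to the same sum in each library, were used for levels and as alternatives.

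Here expected counts were rounded and fitted for all 9 libraries in 4 groups with edgeR 4.0.16 (R 4.3.3), with TMM factors, genes kept by filterByExpr (minimum count 10, minimum total 15) and the quasi-likelihood test. Both effects, their difference and the contrasts of the control and the perturbed groups came from the same fit. Standard errors were derived from the estimate and its F statistic. Calls needed an adjusted p under 0.05 and a fold over 1.5. Genes were assigned to the classes by these calls, and the test was checked on simulated data. Between 2 replicate libraries chi-square per degree of freedom was 2.65 to 12.4, so no pair was taken for the same library. Coordinates are from GENCODE 44 lifted to GRCh37, which matched 55538 genes (96.1%).

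The genes named were the genes of the SOX2 locus and TP63, KLF5 and MYC, then those with the smallest p of the difference per class and direction (6 in opposite directions, 5 called in only 1 arm, 3 called in both), with a TPM of at least 1 and no overlap of libraries, and up to 4 per gene list. The members and lists were chosen with earlier results of these data known. Alternatives were DESeq2 1.42.0, limma 3.58.1 on TPM, other scalings, filters and folds, and leaving out each library. The other 8 libraries of the series were used only in the alternative fit of all 17. Intervals and floors of 3 counts cover counting error or the fit only.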

Additional observations from a re-analysis of the deposited data

Results flagged for a closer look

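The 12 named genes called in opposite directions are given here because the test of the difference between the effects passed for each. They were chosen for opposite calls without overlap of libraries, so the agreement of their single libraries is fixed by that choice. Differences are log2 values, e1 repression minus knockout, from edgeR's quasi-likelihood test. Among genes that rose after e1 repression and fell after knockout, the difference was 4.19 for CNTNAP2, 1.42 for JAG1, 1.99 for SLC7A11, 1.80 for FGF2, 1.45 for IGF2 and 2.29 for GSTM3. Among genes that fell after e1 repression and rose after knockout, it was -3.08 for KRT19, -4.62 for KRT15, -1.88 for MYH14, -2.68 for PTPRU, -2.30 for GRHL3 and -1.62 for HSPG2. The adjusted p ranged from 3.39e-09 (KRT19) to 3.71e-05 (GSTM3). The control groups themselves were not called different for MYH14, GRHL3 and IGF2 and were called different for the other 9.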

How the results depend on the processing

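Counts are given in the order genes differing between the effects, called in e1 repression, called in SOX2 knockout, opposite, e1 repression only, knockout only, and both in the same direction by unequal amounts. A fold over 2 gave 1021, 1544, 2430, 19, 164, 455 and 172, and no minimum fold gave 4010, 5307, 7682, 418, 682, 1857 and 961. With limma on log2(TPM + 1), 34 genes were opposite, of which 20 were shared with the 65, and 263 were unequal, and with limma on log2(TPM + 0.1) 44 were opposite, 22 of them shared, and 253 unequal. Of the 2018 and 1950 differing genes on TPM, 1369 and 1343 were shared with the 2397. Other counts stayed within 1.5 times, among them 2084 differing genes with DESeq2, 2371 with RLE factors, 2785 with library size alone, 2588 without the filter, 2178 with a mean of at least 50 counts, 2170 with all 17 libraries in a single fit, and 2012 to 2758 differing and 52 to 87 opposite when leaving out 1 library. The share of higher calls was 49.5%, but 67.6% with library size alone and 65.2% and 67.5% with limma on TPM. The guide numbers 1 and 2 occur in both CRISPRi groups but only name guides (correlation of same-numbered libraries 0.01 over 11127 genes). The replicate block gave 2319 differing genes, 2300 of them shared, and 2663, 4240, 64, 355, 1099 and 386 for the other counts. In the fit of all 17 libraries the knockout effects of KRT15 and IGF2 were not called. Over the named genes and list members, 6928 results kept their direction and call, 264 lost the call, 7 gained it and 1 changed sign, SOX2, whose difference ranged from -0.47 to 0.09 when leaving out 1 library, with 0.09 without sg-SOX2#4. The cause was not tested. On TPM the differences of SOX2-OT, COL5A2, MMP2, FGFR3 and JUND were not called, and in the fit of all 17 libraries those of KLF4, KRT17, KRT6A, ITGA6 and FTL were not. Depth limits genes near 3 counts, above all in the cornified envelope list.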
